A study of Saccharomyces cerevisiae with 21 samples.

Results

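Zinc limitation was set against phosphorus limitation in anaerobic chemostat cultures of baker's yeast, Saccharomyces cerevisiae, in which glucose was left over in both media. The comparison used 6 of the 21 arrays of the series: 3 from Zn-limited and 3 from P-limited wild-type cultures, chosen by their titles alone. Both groups were the haploid prototrophic laboratory strain CEN.PK113-7D (MATa MAL2-8c SUC2, as given for the P-limited cultures), and served as the wild type of the series. In a chemostat, fresh medium flows in at a fixed rate and the nutrient in shortest supply sets growth, so both groups grew at the same dilution rate of 0.10 per h, at pH 5.0. Residual glucose was aimed at 17 g/L in both, and both media held ergosterol and Tween 80, which yeast needs to grow without oxygen. For the Zn-limited cultures, vessels were washed with acid and EDTA to strip zinc, a step not described for the P-limited ones. Independent replicate cultures are stated for both groups, and what the b that closes the array code of P-limited replicate 3 stands for is not given.

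Zinc supply in yeast is read by the activator Zap1, which is active when cell zinc is low and raises genes of zinc uptake, of release of zinc from the vacuole and of adaptation to scarce zinc. Phosphate supply is read by the cyclin-dependent kinase complex Pho80-Pho85. When phosphate is scarce, the inhibitor Pho81 blocks that kinase, and the activators Pho4 and Pho2 raise genes of phosphate uptake, of phosphatases and of the vacuolar store of polyphosphate, a chain of phosphates that is also a phosphate reserve. The comparison thus sets 2 nutrient-specific programmes side by side at 1 growth rate. The series itself asks how reserve carbohydrates, glycogen and trehalose, follow the limiting nutrient.

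Signals are intensities of Affymetrix yeast arrays, scaled so that all arrays had the same 2% trimmed mean (150.2), with values under 12 raised to 12, called the floor here. The 3 Zn-limited arrays are a deposit of their own, and the P-limited arrays share another with the S-limited and mutant arrays, so deposit and limiting nutrient cannot be told apart. As deposited, the trimmed mean signal was 398 to 466 on the Zn-limited and 150.1 to 150.2 on the P-limited arrays. Once scaled, a Zn-limited array had 25.1% to 28.0% and a P-limited array 32.2% to 33.6% of its probe sets at the floor. Actin probe sets gave 3' to 5' signal ratios, which grow with RNA breakdown, of 1.31 to 1.47 in Zn limitation and 1.22 to 1.41 in P limitation. All 13 measured genes of a-cell mating lay above the floor on all 6 arrays, in a strain whose label gives mating type a. So did 4664 of all 5450 genes tested, so this count does not tell the mating type. MF(ALPHA)1, an alpha-factor gene of the other mating type, lay above it on all 6 arrays too. It read 402, 202 and 311 in Zn limitation, against 33.0, 34.8 and 27 in P limitation, and was 9.34-fold higher. With 3 arrays per group, precision is limited by their number. The part of these differences between the arrays in the results below was not tested. Each array measured the RNA of a whole culture, so a change in every cell cannot be told apart from a larger one in some cells.

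Of 5450 genes tested with limma, 845 (15.5%) differed between Zn and P limitation by 2-fold or more with an adjusted p under 0.05, the rule by which a gene is called here. Of these, 661 (12.1%) were higher and 184 (3.38%) lower in Zn limitation. The values of the 3 Zn-limited and 3 P-limited arrays did not overlap for 649 of the genes called higher and 179 of those called lower, nor for 2607 (47.8%) of all genes tested. The median log2 difference over all genes was 0.22, and this shift depended on signal level: it was 0.31, 0.48, 0.28 and 0.15 in the first 4 of 5 equal groups of genes by mean signal and -0.10 in the brightest. The split of the calls followed the scaling. Quantile normalisation gave 343 genes higher and 341 lower, a common median gave 293 and 588, and the values as deposited gave 4656 and 12. Under the trimmed mean, quantile and median scalings alike, 283 genes were called higher and 179 lower. The lists below are read against the median of 0.22 and these shares. Their members were chosen with earlier results of these data known, so the counts describe the lists and do not test them.

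**Figure D1:**
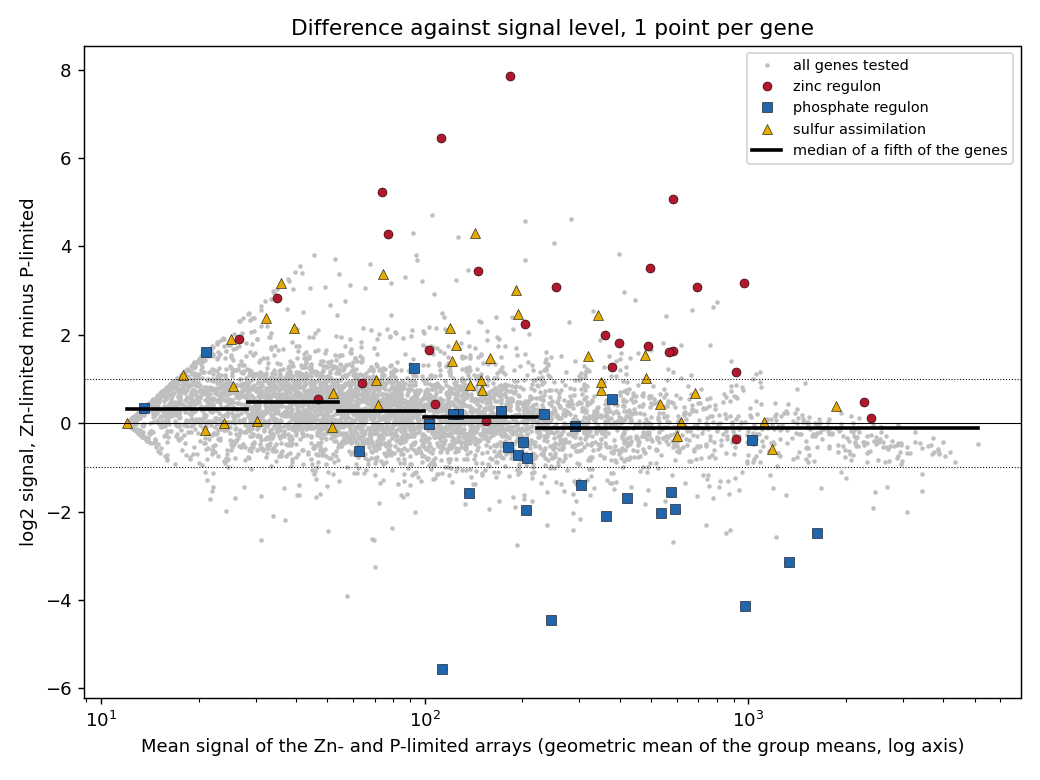
Difference between Zn and P limitation (vertical axis, log2 signal, Zn-limited minus P-limited) against mean signal (horizontal, log axis), 1 point per gene tested. Red circles are zinc regulon, blue squares phosphate regulon and yellow triangles sulfur assimilation genes, and black bars the medians of 5 equal groups of genes by level, which run from 0.48 in the second to -0.10 in the brightest.

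The genes of zinc transport and their activator stood higher in Zn limitation: 7 of 9 rose and none fell, with a median log2 difference of 2.25, and the same 7 were called under the trimmed mean, quantile and median scalings. ZAP1 (YJL056C), the activator gene itself, read 502, 408 and 530.3 on the Zn-limited arrays, against 45.4, 50.7 and 36.9 on the P-limited arrays. The lowest Zn-limited array thus lay far above the highest P-limited one, a rise of 10.9-fold (log2 3.44 ± 0.22, standard error, adjusted p 4.97e-08). ZRT1 (YGL255W), which encodes the high-affinity zinc transporter of the plasma membrane, read 2058, 1873 and 2084 in Zn limitation, against 281, 207 and 227 in P limitation. Its rise was 8.48-fold, and ZRT1 was far from silent in the P-limited cultures. The low-affinity transporter gene ZRT2 had a similar rise of 8.46-fold, with signals of 909, 725 and 584 in Zn limitation, against 83.3, 109.8 and 69.6 in P limitation.

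Transport out of and into stores rose as well. ZRT3 (YKL175W), whose product releases zinc from the vacuole, read 1729, 1537 and 1732 in Zn limitation, against 171, 152 and 119.8 in P limitation, and rose 11.4-fold (log2 3.51 ± 0.20, adjusted p 2.28e-08). ZRC1, which carries zinc in the opposite direction, into the vacuole, rose 4.01-fold, with 677, 753 and 708 in Zn limitation, against 236, 184 and 129 in P limitation. So the gene for filling the store and the gene for emptying it were both higher, and the second by the larger factor. ZRG17, of zinc supply to the endoplasmic reticulum, rose 4.77-fold. FET4, a low-affinity transporter of iron that also takes zinc, rose 3.54-fold. The genes not called were MSC2, the partner of ZRG17 (log2 0.91 ± 0.19, adjusted p 0.00186), and COT1, a second vacuolar importer, whose arrays overlapped between the groups (171, 167 and 131 in Zn limitation, against 138, 195 and 125 in P limitation).

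**Figure D2:**
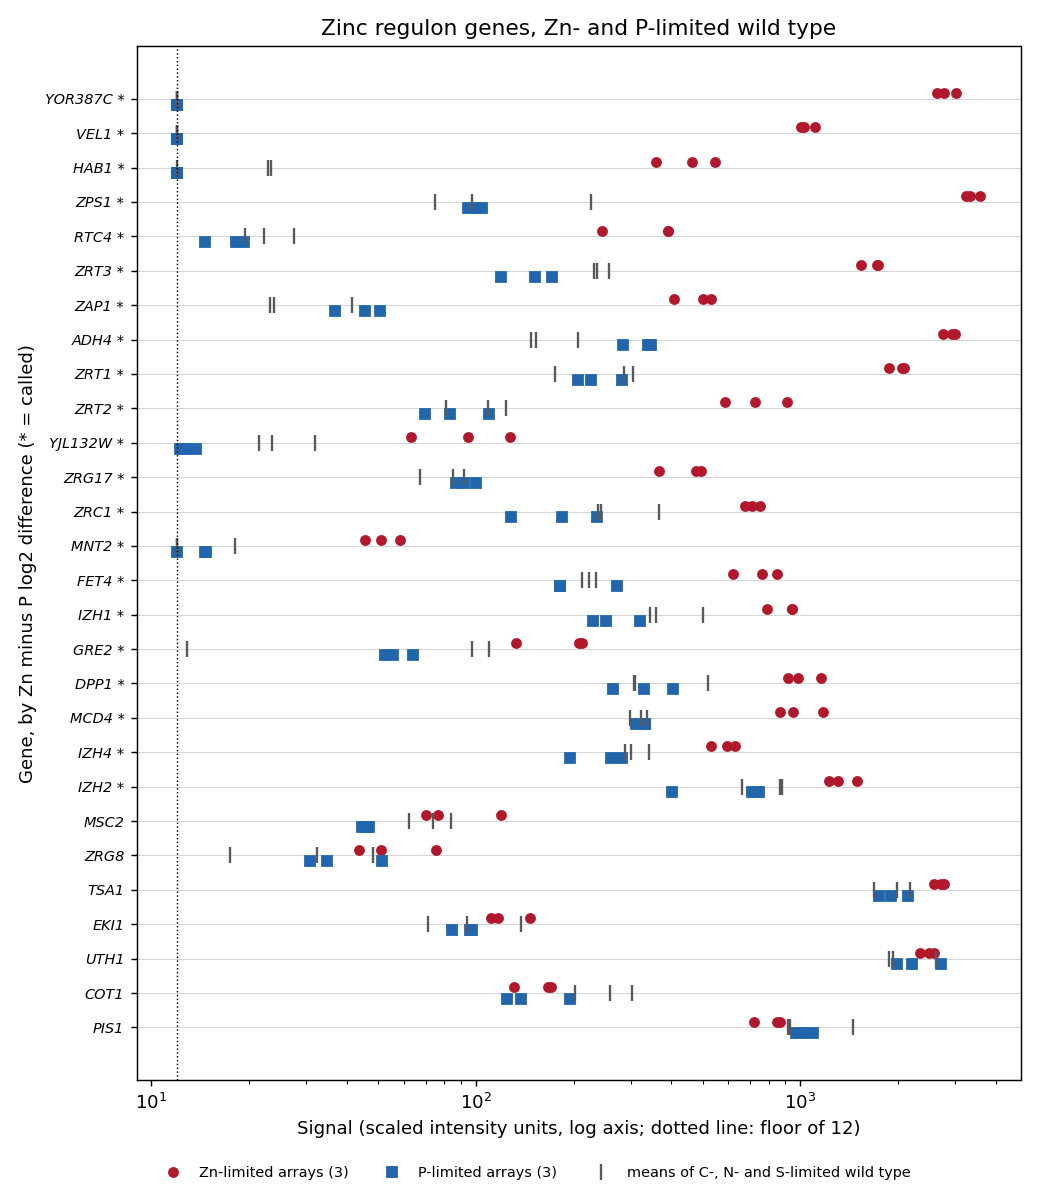
Signal of the 28 zinc regulon genes (rows, ordered by their difference) on each Zn-limited (red circles, upper) and P-limited array (blue squares, lower), on a log axis, with grey ticks for the means of the C-, N- and S-limited wild type and a dotted line at the floor of 12. The 21 genes with a star were called higher in Zn limitation, and their difference stayed positive under every scaling tried, values as deposited included. YOR387C, VEL1 and HAB1 lay at the floor on every P-limited array.

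Of 19 other genes assigned to Zap1, 14 rose and none fell, and 12 of the 14 were called under all 3 scalings. The exceptions were IZH2 and IZH4, not called after scaling to a common median, and IZH2 was not called without P-limited replicate 3 either. The largest difference over all genes was fitted to YOR387C, of unknown function, at 2763, 3008 and 2641 in Zn limitation, against 12 on every P-limited array, and therefore at least 233-fold higher. Its paralogue VEL1 (YGL258W) read 1113, 1006 and 1024 in Zn limitation, against 12 on every P-limited array, and was at least 87.2-fold higher. As paralogues, they may share signal between their probe sets. HAB1 was also at the floor on the P-limited arrays and read 544, 359.9 and 464 in Zn limitation, at least 37.5-fold higher. For these 3 genes the P-limited value is only a bound, so their order by fold is not known.

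ZPS1 (YOL154W), a cell surface protein gene, read 3232, 3588 and 3339.8 in Zn limitation, against 105, 101 and 94.7 in P limitation, a rise of 33.8-fold (log2 5.08 ± 0.13, adjusted p 1.87e-12). ADH4 (YGL256W), an alcohol dehydrogenase gene that neighbours ZRT1, rose 8.97-fold, with 2749, 3000.1 and 2924 in Zn limitation, against 346, 285 and 339 in P limitation. RTC4 rose 19.4-fold and the uncharacterised gene YJL132W 7.09-fold. Membrane and lipid genes of the list changed less. DPP1, a diacylglycerol pyrophosphate phosphatase gene, rose 3.09-fold, MCD4, of glycosylphosphatidylinositol anchor synthesis, 3.04-fold, and the membrane protein genes IZH1, IZH4 and IZH2 rose 3.37-fold, 2.40-fold and 2.24-fold. GRE2, a methylglyoxal reductase gene, rose 3.16-fold, and MNT2, a mannosyltransferase gene, was at least 3.74-fold higher, which was under 2-fold with the floor at 30. ZRG8, PIS1, EKI1, TSA1 and UTH1 were not called, with log2 differences between -0.35 (PIS1, phosphatidylinositol synthase, which Zap1 is known to affect) and 0.54 (ZRG8).

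Over the whole list of 28 genes, 21 rose and none fell, against 12.1% and 3.38% of all genes, and the median log2 difference was 1.86. The other wild-type groups, limited for carbon, nitrogen or sulfur, place these values: on all 3 Zn-limited arrays 21 of 28 list members lay above all 9 of those arrays, against 9.01% of all genes, and on all 3 P-limited arrays 1 did, ADH4. ZAP1 averaged 480.1 ± 63.9 in Zn limitation (SD, n = 3) and 44.3 ± 6.96 in P limitation, with group means of 23.2, 41.5 and 23.8 in C, N and S limitation. Of the P-limited arrays of ZAP1, replicate 2, at 50.7, lay above the highest of those 9 arrays, at 46.7, and the other 2 lay among them. All 3 P-limited arrays lay below all 9 for ZRT3, MSC2, IZH1 and YJL132W. These groups are given for scale only, since the C- and N-limited arrays come from deposits of their own and the N-limited labels also describe sparging with air. The list members were chosen with earlier results of these data known, so the shares given here describe the list and do not test it.

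Zinc is a cofactor of many enzymes. Of 17 genes of zinc-binding enzymes 5 fell and 1 rose, against 3.38% and 12.1% of all genes. Their median log2 difference was -0.52. All 6 calls held under the trimmed mean, quantile and median scalings, with 8 called lower after scaling to a common median. On the values as deposited ADH3, APE1 and PHO8 turned higher, and ADH1 and ADH5 lost their calls. ADH1 (YOL086C), the main alcohol dehydrogenase of fermentation, read 2009.8, 1732 and 2259 in Zn limitation, against 4115, 6111 and 7469.6 in P limitation, and fell 2.88-fold (log2 -1.53 ± 0.28, adjusted p 0.000809). The mitochondrial isoenzyme gene ADH3 fell 2.35-fold, with 579.8, 547 and 657 in Zn limitation, against 1453, 1308 and 1428 in P limitation. For both genes the 3 Zn-limited arrays also lay below all C-, N- and S-limited arrays. ADH5, a further isoenzyme, fell 2.94-fold, and APE1, a vacuolar aminopeptidase gene, 2.11-fold, a call lost when Zn-limited replicate 3 or P-limited replicate 2 was left out. The alkaline phosphatase gene PHO8 belongs to this list and to the phosphate regulon and is described with that regulon. The rise was that of NCE103, carbonic anhydrase, at 847, 772 and 451 in Zn limitation, against 306, 266 and 133 in P limitation. SOD1, copper-zinc superoxide dismutase, and FBA1, aldolase, were not called (log2 -0.58 ± 0.16, adjusted p 0.0133, and log2 -0.52 ± 0.17, adjusted p 0.0293). All 3 Zn-limited values of both lay below all C-, N- and S-limited ones, and for SOD1 all 3 P-limited values did too.

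Among 16 genes of alcohol and aldehyde metabolism 4 fell and 3 rose, against 3.38% and 12.1% of all genes. On the values as deposited ADH3 alone of the called genes turned, while ADH1 and ADH5 lost their calls. ADH6, an NADPH-dependent cinnamyl alcohol dehydrogenase gene, had the largest fall, 9.61-fold, with 23.6, 33.0 and 13.3 in Zn limitation, against 237, 235 and 164 in P limitation. ADH4, counted with the zinc regulon, thus moved against ADH1, ADH3, ADH5 and ADH6. ALD2, a stress-induced aldehyde dehydrogenase gene, rose 6.35-fold and PDC5, a pyruvate decarboxylase gene, 3.34-fold. ALD4 completes the genes that rose, but it was not called after quantile or median scaling.

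Of 29 measured phosphate regulon genes, 13 fell and 2 rose in Zn limitation, against 3.38% and 12.1% of all genes, with a median log2 difference of -0.71. All 13 falls held under the trimmed mean, quantile and median scalings. On the values as deposited only PHO84, PHO3, PHM6 and SPL2 of them were still called lower, and PHO8 alone turned higher. PHO84 (YML123C), which encodes the high-affinity transporter of phosphate, read 345, 553 and 454 in Zn limitation, against 3414, 4348 and 4009 in P limitation, a fall of 8.83-fold (log2 -3.14 ± 0.22, adjusted p 1.15e-07). The Zn-limited signal was nevertheless far from the floor. GIT1 (YCR098C), a permease gene for glycerophosphoinositol, fell 2.95-fold, with 206, 406 and 415 in Zn limitation, against 1117, 841 and 950.5 in P limitation, a call also lost with the floor at 1. PHO89, the gene of the sodium-coupled phosphate transporter, was not called and its arrays overlapped: it read 739.9, 904 and 1053 in Zn limitation, against 1276, 1217 and 1025 in P limitation (log2 -0.39 ± 0.19, adjusted p 0.122). The low-affinity transporter genes PHO87 and PHO90 overlapped too (log2 0.21 ± 0.27 and 0.21 ± 0.19). PHO91, the vacuolar transporter gene, did not overlap, but its log2 difference of -0.78 ± 0.17 missed the fold of 2. PHO91 was called after scaling to a common median and by the adjusted p alone.

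**Figure D3:**
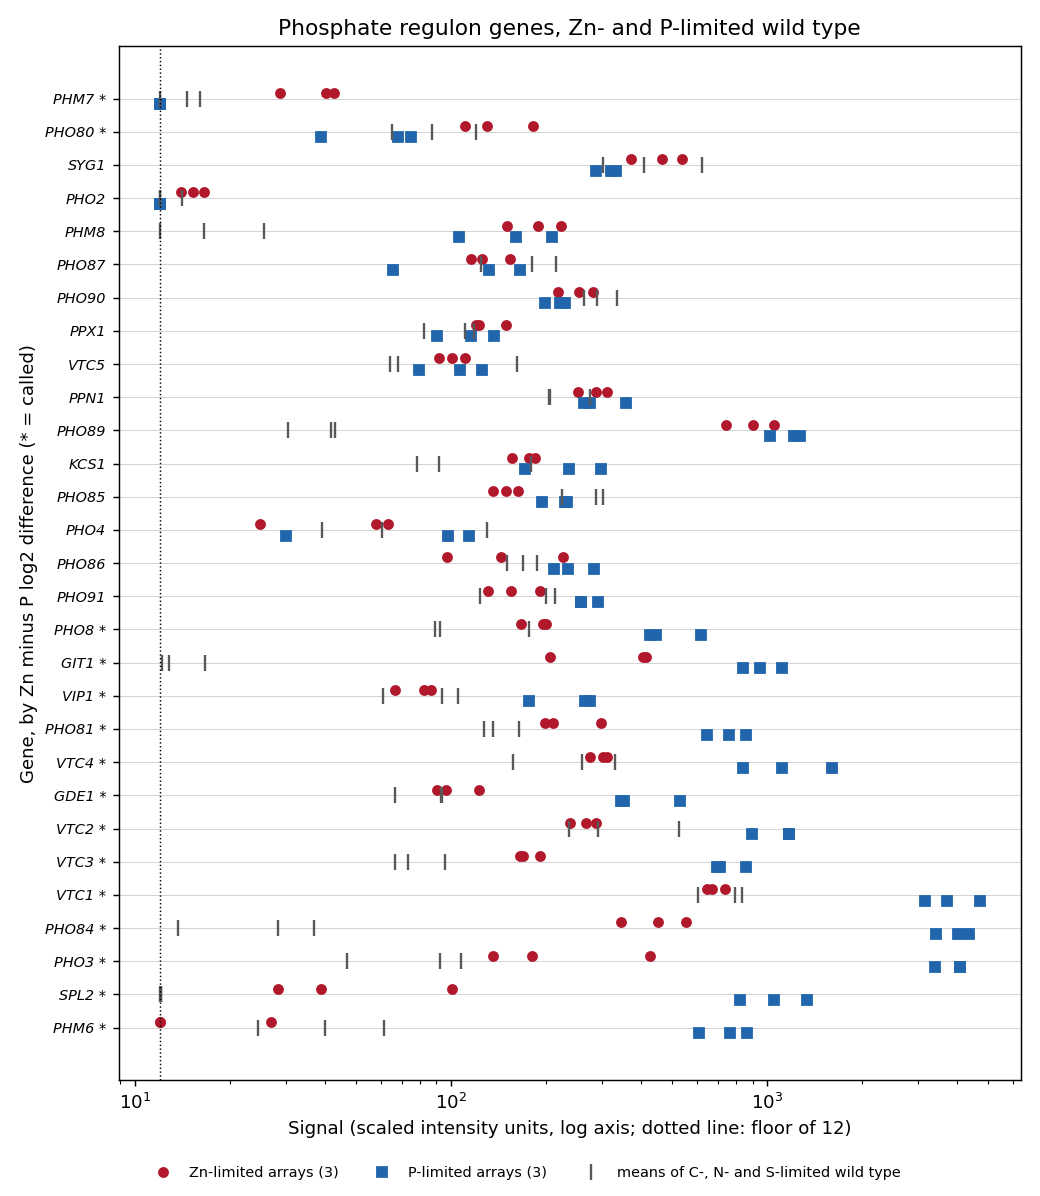
Signal of the 29 phosphate regulon genes tested (rows, ordered by their difference) on each Zn-limited (red circles, upper) and P-limited array (blue squares, lower), on a log axis, with grey ticks for the means of the C-, N- and S-limited wild type and a dotted line at the floor of 12. Of the 15 genes with a star 13 were lower in Zn limitation (PHO8 turned on the values as deposited) and 2 higher, and PHO84, PHO89, GIT1 and PHM8 lay above the grey ticks in both groups.

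The phosphatases differed among themselves. PHO3 (YBR092C) is an acid phosphatase gene repressed by thiamine and is counted here in both the phosphate and the thiamine list. It read 136, 428 and 181 in Zn limitation, against 3408, 4079.7 and 4075 in P limitation, and fell 17.5-fold (log2 -4.13 ± 0.31, adjusted p 2.73e-07). Its neighbour and near copy PHO5, the acid phosphatase gene best known for its response to phosphate, lay at the floor on all 15 wild-type arrays and could not be tested, so the signal of the PHO3 probe set is uncertain between the copies. PHO11 and PHO12 share a probe set and were not measured apart. PHO8, the vacuolar alkaline phosphatase gene, read 167, 195 and 199.6 in Zn limitation, against 616, 427 and 446 in P limitation, and fell 2.63-fold. PHM8, a gene of a nucleotide and lysophosphatidic acid phosphatase, was not called and overlapped, at 150.3, 223 and 189 in Zn limitation, against 208, 106 and 161 in P limitation.

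Genes of polyphosphate synthesis fell together. VTC1, VTC2, VTC3 and VTC4 encode the vacuolar complex that makes polyphosphate, and all 4 fell, by 5.58-fold, 4.08-fold, 4.30-fold and 3.87-fold. VTC1 (YER072W) read 644, 668 and 737 in Zn limitation, against 3170.3, 3705 and 4703 in P limitation (log2 -2.48 ± 0.17, adjusted p 9.87e-08). VTC4 (YJL012C), the subunit that polymerises phosphate, read 302, 313 and 275 in Zn limitation, against 837, 1607 and 1116 in P limitation. The regulatory subunit gene VTC5 was not called (log2 -0.02 ± 0.21, adjusted p 0.972), nor were the polyphosphatase genes PPN1 and PPX1 (log2 -0.07 ± 0.21 and 0.20 ± 0.22). GDE1, a glycerophosphodiesterase gene, fell 3.92-fold. PHM6 (YDR281C), of unknown function, was at the floor on all but 1 Zn-limited array, with 12, 27.0 and 12 in Zn limitation, against 864, 610.2 and 766 in P limitation, and was at least 47.0-fold lower, the largest fall in the fit over all genes. PHM7 went the other way, at 40.4, 28.7 and 42.6 in Zn limitation and at the floor on the P-limited arrays, at least 3.06-fold higher, a call that ended with the floor at 30.

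Among the signalling genes PHO81 (YGR233C), of the inhibitor of the Pho80-Pho85 kinase, read 211, 199 and 299 in Zn limitation, against 756, 645 and 858 in P limitation, and fell 3.22-fold. SPL2 (YHR136C), which acts on low-affinity phosphate uptake, fell 21.9-fold, with 28.3, 101 and 38.8 in Zn limitation, against 1052, 820.1 and 1341 in P limitation. The Zn-limited arrays of SPL2 spread widely, with replicate 2 above the others, and PHO3 had the same order. VIP1, a kinase gene of inositol pyrophosphate synthesis, fell 3.01-fold. It lost its call when all its probe sets were averaged (log2 -0.80), since they disagree. The cyclin gene PHO80 rose 2.37-fold, but not after quantile or median scaling, nor without P-limited replicate 3. The kinase gene PHO85 and the activator genes PHO4 and PHO2 were not called (log2 -0.55 ± 0.19, -0.63 ± 0.47 and 0.34 ± 0.15), nor were PHO86, KCS1 and SYG1.

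Set beside the C-, N- and S-limited groups, some phosphate regulon genes, though not most, were high in both of the groups compared. On all 3 P-limited arrays 16 of 29 genes lay above all 9 arrays of those groups, against 2.26% of all genes, and on all 3 Zn-limited arrays 9 did, against 9.01%. In both groups 8 did: PHO84, PHO89, GIT1, PHO3, PHM8, VTC3, PHO81 and SPL2. PHO84 averaged 451 ± 104 in Zn limitation (SD, n = 3) and 3923 ± 473 in P limitation, beside means of 28.4, 37.0 and 13.7 in C, N and S limitation. For PHO89 the averages were 899 ± 157 in Zn limitation and 1173 ± 132 in P limitation, with 30.5, 43.1 and 41.9 in the other groups. GIT1 averaged 342 ± 118 in Zn limitation and 969.6 ± 139 in P limitation, with 16.7, 12.8 and 12.2 elsewhere, and PHM8 averaged 187 ± 36.2 in Zn limitation and 158 ± 51.1 in P limitation, with 12, 25.7 and 16.5. The genes thus form a range, with the arrays of PHO89 and PHM8 overlapping between the 2 groups, PHO84 and GIT1 between P limitation and the rest in Zn limitation, and VTC1, VTC2 and VTC4 within the range of the other groups in Zn limitation. In Zn limitation PHM6 had 2 of 3 arrays at the floor and the third at 26.96, and its average was below the group means of 61.6, 39.95 and 24.6. These positions were known from earlier results on these arrays and were not tested.

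**Figure D4:**
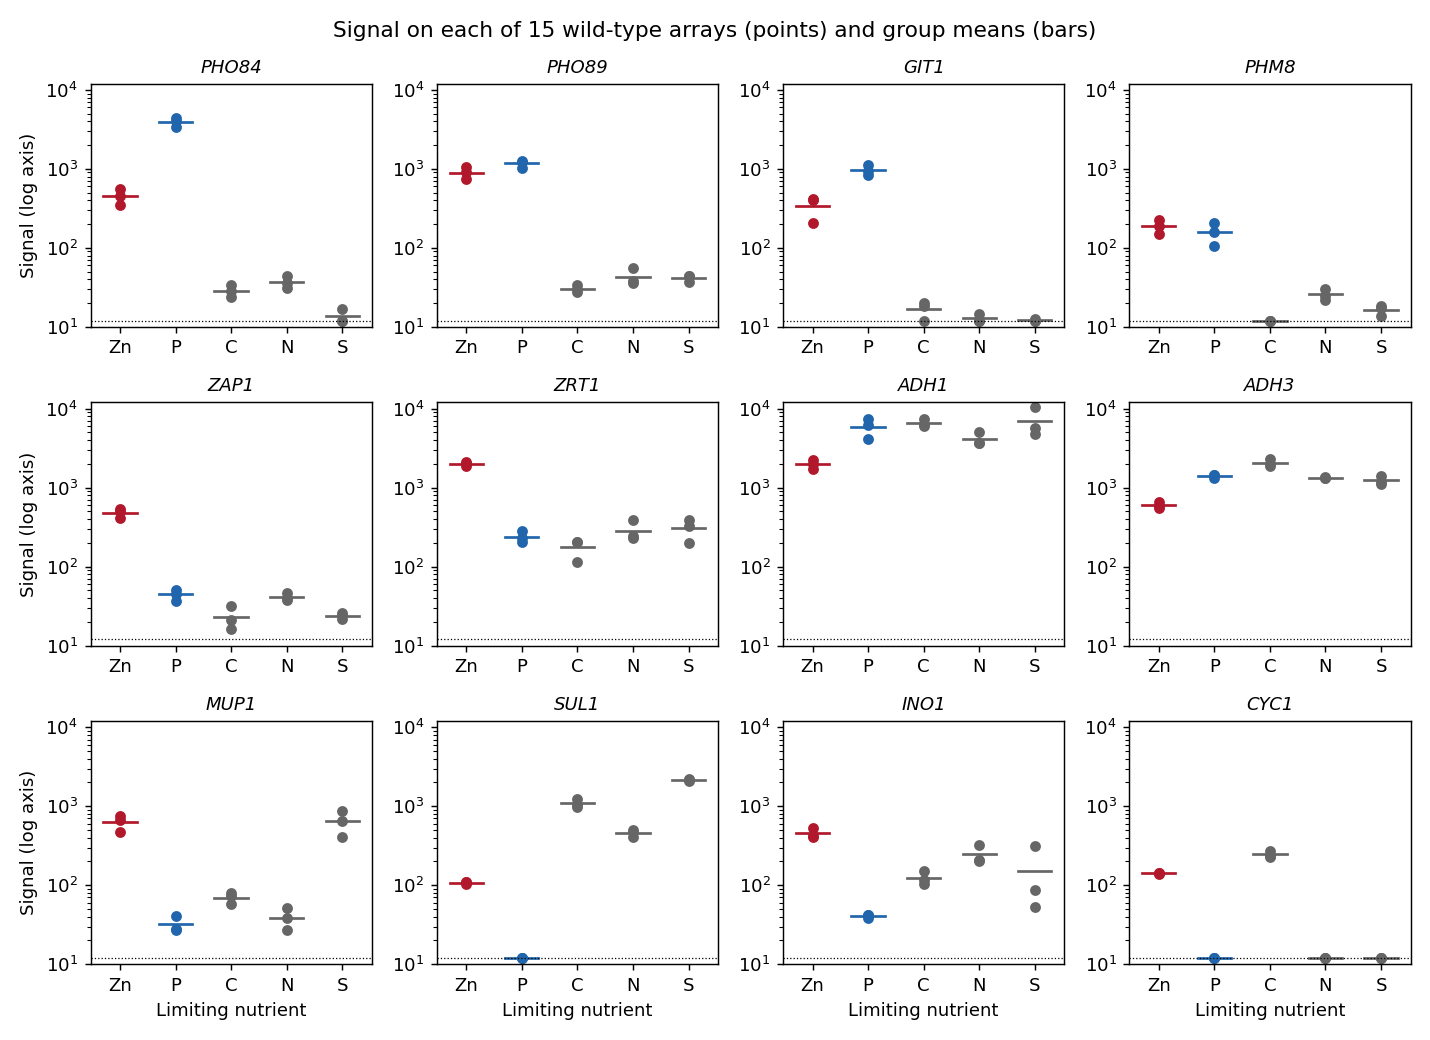
Signal of 12 genes (panels) on each of the 15 wild-type arrays (points) by limiting nutrient, Zn and P first in colour and C, N and S in grey, on a log axis with a dotted line at the floor of 12. Bars are group means (n = 3), and PHO89 and PHM8 are high in Zn and P limitation and low elsewhere, while ZAP1 and ZRT1 are high in Zn limitation alone of the 5.

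Genes of sulfur assimilation stood higher in Zn limitation: of 38 genes 17 rose and none fell, against 12.1% and 3.38% of all genes. The median log2 difference was 0.95, and 14 of the rises were called under the trimmed mean, quantile and median scalings. The rises lay mostly in uptake, where 9 of 12 rose, against 7 of 20 for sulfate reduction and sulfur amino acid synthesis and 1 of 6 regulators. MUP1 (YGR055W), the high-affinity methionine permease gene, read 671, 477 and 762 in Zn limitation, against 27.4, 28.2 and 40.8 in P limitation, a rise of 19.8-fold (log2 4.31 ± 0.29, adjusted p 9.87e-08). YCT1, the cysteine transporter gene, rose 10.4-fold, STR3, cystathionine beta-lyase, 8.11-fold, SAM3, an S-adenosylmethionine permease gene, 5.53-fold, and MET3, ATP sulfurylase, 5.46-fold. SUL1 (YBR294W), a sulfate permease gene, read 103, 111 and 109.9 in Zn limitation, against 12 on every P-limited array, at least 8.98-fold higher.

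The other wild-type groups differ for these genes. SUL1 averaged 108 ± 4.36 in Zn limitation (SD, n = 3) and lay at the floor in P limitation, while its means were 1094, 461 and 2147 in C, N and S limitation. Both groups compared were thus low, and the higher of the 2 was Zn limitation. For MUP1 the Zn-limited average of 637 ± 146 was near the S-limited mean of 643, and the P-limited average was 32.1 ± 7.51. On all 3 P-limited arrays 18 of 38 sulfur genes (47.4%) lay below all C-, N- and S-limited arrays, against 5.39% of all genes, and on all 3 Zn-limited arrays 1 did, against 5.94%.

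Of 24 genes of the iron regulon, 11 rose and none fell, against 12.1% and 3.38% of all genes. The median log2 difference was 0.92, and 7 of the rises held under the trimmed mean, quantile and median scalings. TIS11, whose product marks transcripts of iron-using proteins for decay, rose 10.3-fold, with 232, 99.0 and 205 in Zn limitation, against 18.8, 13.2 and 17.2 in P limitation. FRE1 (YLR214W), a ferric reductase gene, read 143, 202 and 173 in Zn limitation, against 19.7, 23.1 and 16.7 in P limitation, and rose 8.70-fold (log2 3.12 ± 0.20, adjusted p 5.12e-08). The iron permease gene FTR1 rose 5.27-fold, and its partner FET3, a ferroxidase gene, was at least 7.06-fold higher. HMX1, haem oxygenase, and the reductase gene FRE4 were at least 5.20-fold and at least 4.94-fold higher, near the floor in P limitation. The call of FRE4 ended with the floor at 30. On all 3 Zn-limited arrays 7 of the 24 genes lay above all C-, N- and S-limited arrays, against 9.01% of all genes, and 1 below. On all 3 P-limited arrays 7 lay below all of them, against 5.39%, and none above. For FET3 the P-limited arrays lay below all of them, while the Zn-limited ones overlapped them.

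INO1 (YJL153C), the first enzyme of inositol synthesis, read 426, 527 and 403 in Zn limitation, against 38.4, 41.9 and 41.5 in P limitation. It rose 11.1-fold (log2 3.47 ± 0.45, adjusted p 5.21e-05), above all C-, N- and S-limited arrays in Zn limitation and below all of them in P limitation. The median log2 difference of 23 genes of inositol and choline phospholipid synthesis was 0.56. Of them 4 rose and none fell, against 12.1% and 3.38% of all genes. The others were DPP1, described above, the activator gene INO4, at least 2.60-fold higher but not with the floor at 30, and HNM1, a choline transporter gene, which rose 2.27-fold but not after scaling to a common median or without P-limited replicate 2. CHO1 and CHO2, of phosphatidylserine synthesis and its conversion to phosphatidylcholine, had log2 differences of 0.78 ± 0.20 and 0.61 ± 0.16 and missed the fold of 2.

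In the thiamine list 5 of 14 genes rose and 2 fell, against 12.1% and 3.38% of all genes. After quantile or median scaling only 3 were called higher. THI4, of thiazole synthesis, rose 3.42-fold, with 161, 198 and 183 in Zn limitation, against 70.2, 42.2 and 49.2 in P limitation, and PET18 rose 3.19-fold. The falls were PHO3, given above, and THI7, the thiamine transporter gene, 2.58-fold lower, which turned higher on the values as deposited. The list thus did not move one way, and its median log2 difference of 0.14 was below that of all genes.

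Of 31 measured reserve carbohydrate genes, the subject of the series, 5 fell, 1 rose and 25 were not called, against 3.38% lower and 12.1% higher of all genes, with a median log2 difference of -0.18. The 5 falls held under quantile and median scaling, and all 5 turned slightly higher on the values as deposited. GSY2 (YLR258W), the main glycogen synthase gene, read 85.8, 72.0 and 61.0 in Zn limitation, against 164, 144 and 140.2 in P limitation, and fell 2.06-fold (log2 -1.04 ± 0.21, adjusted p 0.00202), a call lost without Zn-limited replicate 3 or P-limited replicate 1. GPH1 (YPR160W), glycogen phosphorylase, which breaks glycogen down, read 108, 89.4 and 38.5 in Zn limitation, against 254, 182 and 129 in P limitation. Its log2 difference of -1.33 ± 0.50 barely passed (adjusted p 0.0491), and the call ended in 10 of the 18 other settings tried. The gene for synthesis and the gene for breakdown thus lay lower together. GLC3, the branching enzyme gene, missed the fold of 2 (log2 -0.78 ± 0.20, adjusted p 0.00813), as did GSY1 (log2 -0.51 ± 0.17, adjusted p 0.0297) and the debranching enzyme gene GDB1 (log2 -0.51 ± 0.22, adjusted p 0.083).

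The kinases that bring glucose into these pathways made up the other falls. HXK1 (YFR053C), hexokinase 1, read 406, 465 and 505 in Zn limitation, against 1463, 976 and 1302 in P limitation, a fall of 2.69-fold. GLK1, glucokinase, fell 2.49-fold, and its paralogue EMI2 2.55-fold. All 3 lay below all C-, N- and S-limited arrays on the Zn-limited arrays, while HXK2, the isoenzyme of growth on glucose, was not called (log2 -0.54 ± 0.25, adjusted p 0.101). PIG2 (YIL045W), whose product guides a protein phosphatase to glycogen synthase, was the rise, 5.46-fold, with 202, 125 and 224 in Zn limitation, against 40.01, 23.1 and 37.4 in P limitation. Its relative GAC1 was low in both groups and not called (41.3, 18.8 and 35.1 in Zn limitation, against 22.5, 13.1 and 15.8 in P limitation).

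None of the 4 genes of trehalose synthesis was called by limma, and TSL1 alone of them had an unadjusted p under 0.05 (log2 0.67 ± 0.17, adjusted p 0.00673). The catalytic genes TPS1 and TPS2 and the subunit gene TPS3 overlapped between the groups (log2 -0.18 ± 0.23, -0.21 ± 0.20 and -0.24 ± 0.21). Of the trehalase genes, NTH1 and ATH1 overlapped, and NTH2 missed the fold of 2 (log2 -0.89 ± 0.23, adjusted p 0.00791) and was called after quantile or median scaling, by the adjusted p alone, and without Zn-limited replicate 3 or P-limited replicate 3. PGM2 and UGP1, which turn glucose phosphate into the sugar donor UDP-glucose, were not called and overlapped (log2 -0.20 ± 0.54 and -0.25 ± 0.18). A p that misses the threshold does not show that these genes were alike.

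Of 28 stress genes known as targets of Msn2 and Msn4, 8 rose and 1 fell, against 12.1% and 3.38% of all genes. The balance turned with the scaling. With a common median 4 were called higher and 7 lower, with quantile normalisation 8 and 3, and 4 of the 8 rises were called under all 3 scalings. YGP1 (YNL160W), a secreted glycoprotein gene of nutrient shortage, read 995, 1077 and 1339 in Zn limitation, against 177, 171 and 100.5 in P limitation, and rose 7.79-fold. HSP26, a small heat shock protein gene, rose 3.40-fold, and the catalase gene CTT1 was at least 3.47-fold higher, a call lost with the floor at 30. The chaperone genes SSA4 and HSP78 rose 2.58-fold and 2.47-fold, but not after scaling to a common median. The fall was that of GPD1, of glycerol synthesis, which turned higher on the values as deposited.

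Hexose transport, which handles the glucose left over in both media, had 3 rises and 1 fall among 14 genes. The shares of all genes were 12.1% and 3.38%. HXT1 (YHR094C), the low-affinity transporter gene of high glucose, read 281, 275 and 367 in Zn limitation, against 37.1, 89.7 and 109.5 in P limitation, and rose 4.27-fold. HXT2, a higher-affinity transporter gene, fell 2.25-fold, with 420.4, 464 and 284 in Zn limitation, against 766, 1041 and 791 in P limitation, and turned higher on the values as deposited. Its call was lost without Zn-limited replicate 3. HXT5 was at least 2.85-fold higher and near the floor in P limitation, a call that ended with the floor at 30. The glucose sensor gene RGT2 rose 2.52-fold under this scaling, but not after quantile or median scaling.

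Nitrogen catabolite repression genes, which serve poor nitrogen sources, had 7 rises and 1 fall among 27, against 12.1% and 3.38% of all genes. With a common median 4 were called higher and 3 lower, and with quantile normalisation 6 and 2, so 4 of the rises held under all 3 scalings. PUT1, proline oxidase, rose 5.68-fold, the ammonium permease genes MEP3 and MEP2 4.14-fold and 3.75-fold, and the regulator gene GZF3 2.79-fold. DAL80, a repressor gene of this system, was the fall and lay near the floor, with 12, 16.6 and 12 in Zn limitation, against 41.8, 29.3 and 28.1 in P limitation. Its call was lost with the floor at 30, and like that of GAP1 with all 21 arrays in the fit. GAP1 rose 2.62-fold, but not after scaling to a common median, and its N-limited mean of 2196 shows the scale of its range. Of the arginine and lysine genes ARG8, ARG3 and ARG1 rose 3.09-fold, 2.47-fold and 2.25-fold, ARG8 alone of them under every scaling, and LYS20, homocitrate synthase, fell 2.24-fold but turned higher on the values as deposited.

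Anaerobic cell wall genes moved both ways, with 3 rises and 4 falls among 12, against 12.1% and 3.38% of all genes. Of the falls TIR3 and TIR4 turned higher on the values as deposited. CWP2 and CWP1, mannoproteins of the wall, rose 5.87-fold and 4.21-fold, and TIR2 rose 2.65-fold but not after scaling to a common median. DAN4 (YJR151C) read 134, 343 and 234 in Zn limitation, against 1132, 1355 and 1852 in P limitation, and fell 6.42-fold (log2 -2.68 ± 0.46, adjusted p 0.000503). TIR3 fell 2.71-fold. PAU23 (DAN2 in older annotation), of the seripauperin family, fell 5.94-fold and PAU19 5.56-fold.

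Respiratory genes, in cultures without oxygen, had 3 rises and no fall among 25, against 12.1% and 3.38% of all genes. The rises were thus near the share of all genes, and the median log2 difference was 0.33. CYC1 (YJR048W), cytochrome c isoform 1, read 144, 137 and 141 in Zn limitation, against 12 on every P-limited array, at least 11.7-fold higher (log2 at least 3.55, adjusted p 4.54e-11). Its means were 246 in C limitation and 12 in N and S limitation. The floor sets the spread of CYC1 to 0 in P, N and S limitation, so its p does not rest on measured replicate spread there. The other isoform gene, CYC7, rose 4.51-fold, and the third rise, COX8, was not called after quantile or median scaling.

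The gene lists of growth and protein synthesis gave no call under the trimmed mean or quantile scaling. With a common median 2 ribosomal protein genes, RPP0 (log2 -1.13) and RPS2 (log2 -1.05), were called lower. Under the trimmed mean limma called none of 25 ribosome biogenesis genes, with 7 higher and none lower at an unadjusted p under 0.05 and a median log2 difference of 0.46. It also called none of 18 ribosomal protein genes, with none higher and 5 lower at an unadjusted p under 0.05 and a median of -0.22. At that unadjusted p 1863 of all 5450 genes were higher and 727 lower, so the 7 of 25 lay below the share of all genes. The 2 medians lay on opposite sides of the all-gene median of 0.22, and after quantile normalisation they were 0.03 and 0.10. The lists of purine synthesis, sterol synthesis and autophagy stand against 12.1% higher and 3.38% lower of all genes. Purine synthesis had 2 rises among 14 genes, but 1 rise and 1 fall with a common median. Sterol synthesis had 3 rises and no fall among 24, but no rise and 4 falls with a common median. Autophagy had 1 rise and 1 fall among 21, and its rise was not called after quantile or median scaling. The autophagy fall was ATG18, 2.27-fold lower, which turned higher on the values as deposited.

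**Figure D5:**
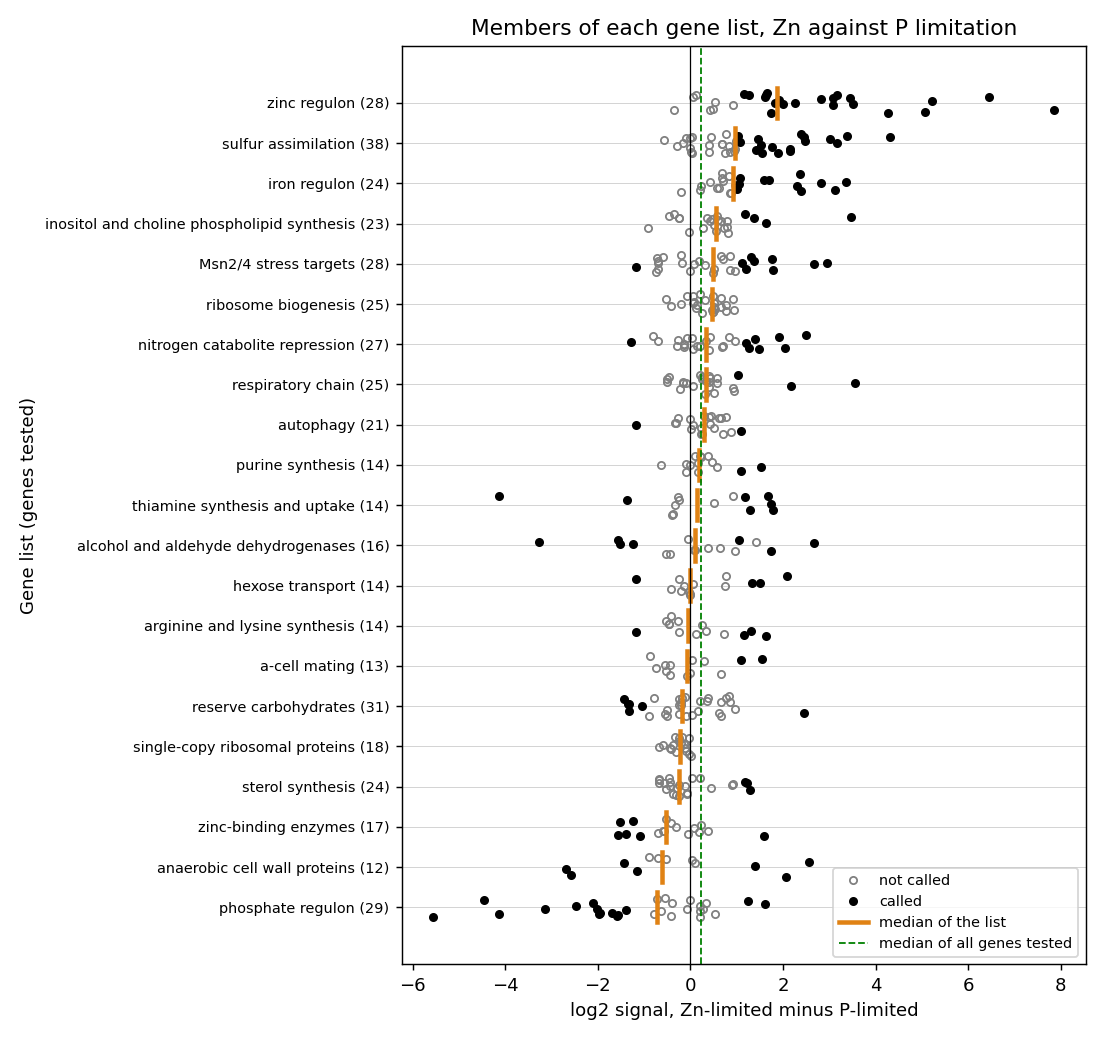
Difference between Zn and P limitation (horizontal axis, log2 signal, Zn-limited minus P-limited) for the members of the 21 gene lists (rows, with the number of genes tested), filled where called. Orange bars are list medians and the dashed line is the all-gene median of 0.22, with the zinc regulon at 1.86 at the top and the phosphate regulon at -0.71 at the bottom, a sign that turns positive on the values as deposited.

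Among the 15 genes that rose most over all genes were some outside the lists. HSP30 (YCR021C), a stress-induced membrane protein gene, read 882, 1889 and 1454 in Zn limitation, against 74.1, 58.7 and 37.6 in P limitation, and rose 24.6-fold. NRG1, a repressor gene of glucose-repressed genes, rose 18.4-fold, BTN2, of protein sorting under stress, 17.0-fold, and TOS8, a homeodomain protein gene, 13.9-fold. FAA1, a fatty acyl-CoA synthetase gene, read 147, 211 and 155 in Zn limitation, against 12 on every P-limited array, at least 14.1-fold higher. HPF1, a cell wall protein gene beside ZPS1, rose 14.1-fold, and NCA3 was at least 19.7-fold higher. MNC1 and YKL068W-A rose 23.7-fold and 26.0-fold. HSP30, NRG1, BTN2, HPF1, FAA1, TOS8, NCA3 and MNC1 lay above all C-, N- and S-limited arrays on the Zn-limited arrays, and YKL068W-A did not, with a mean of 682 in S limitation.

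Among the 15 genes that fell most, those outside the lists were FLO10, MRS3, YJL213W, SPC25, GFD2, DSK2 and PAU19. FLO10 (YKR102W), a flocculin gene of cell adhesion, read 14.4, 15.2 and 12.1 in Zn limitation, against 189, 406 and 116 in P limitation, and fell 15.0-fold. MRS3, of iron import into mitochondria, read 12, 13.2 and 12 in Zn limitation, against 85.2, 90.6 and 60.3 in P limitation, and was at least 6.26-fold lower. Here the Zn-limited arrays were the ones apart, since the C-, N- and S-limited means of MRS3 were 117, 93.3 and 84.4. DSK2, a ubiquitin receptor gene, fell 5.35-fold and SPC25, of the kinetochore, 6.19-fold. YJL213W and GFD2 fell 6.21-fold and 5.46-fold.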

How the data were processed

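Linear signal intensities were deposited for 9335 probe sets (Affymetrix YG-S98) on 21 arrays. The signal was computed with GCOS, per the submitters' processing notes, in version 1.2 for the P-limited arrays, per the labels' protocols, and the version for the Zn-limited arrays is not given in the sources used here. The labels' protocols for the P-limited arrays describe values under 12 as set to 12, yet lower ones stand in the table. Here each array was scaled to the same 2% trimmed mean (150.2), floored at 12 and taken to log2. By the platform annotation 6504 probe sets had 1 gene, 328 several and 2443 none, and 60 were controls; the brightest was kept for 315 genes that had several. Of 5656 genes 206 at the floor on all 15 wild-type arrays were left out. Names follow the R64 annotation.

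Means of 5 wild-type groups (15 arrays) were estimated by limma 3.58.1 (R 4.3.3), and p was adjusted by the Benjamini-Hochberg method over 5450 genes. The mutant arrays stayed out because an earlier report on these data found 1 of them apart from its group. Log2 differences carry ± the fit's standard error and mean signals ± SD. The spread behind each standard error and p was shared over the 5 wild-type groups, so it is not that of the 6 arrays compared alone. Folds are ratios of geometric means, written "at least" where the lower group had an array at the floor. The members and the 21 lists, written from general knowledge of yeast, and the rule for naming genes were chosen with earlier results of these data known. The rule was all members of the zinc, phosphate and reserve carbohydrate lists, up to 6 called and 2 uncalled genes of every other list, and the 15 highest and 15 lowest called genes without overlap. Genes named beyond it (GPD1, ALD4, TIR4 and MF(ALPHA)1, the PAU family and neighbouring genes) were chosen after their values were seen. Tested on simulated data with 5450 genes, log2 changes of 1, 1.5, 2 and 3 were called in 50%, 86%, 98% and 100% of the changed genes of this comparison, along with 2 unchanged genes. A log2 change of 1 lies at the fold limit itself. The simulation had normal noise, changed only genes well above the floor in P limitation, and held no difference of deposit or scaling. Its 2 false calls therefore do not cover such differences. Alternatives were other scalings, floors, fits, probe set rules and filters, the replicate block, and each array left out. Replicate numbers were not taken to pair the arrays. The correlations of same-numbered deviations were -0.20, 0.06 and 0.30, which cannot settle pairing, since those of differently numbered arrays were not set beside them.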

Additional observations from a re-analysis of the deposited data

How the results depend on the processing

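Of 154 genes chosen to be named, 112 were called, 68 of them in all 18 settings tried and 88 in all but the values as deposited. Genes called higher and lower numbered 343 and 341 with quantile normalisation, 293 and 588 with a common median, and 4656 and 12 on the values as deposited, where the median log2 difference over all genes was 1.68. With the floor at 30 the counts were 423 and 167, and with an adjusted p alone 1501 and 560. Leaving out 1 array gave 534 genes higher without P-limited replicate 3, up to 860 without P-limited replicate 1, and 176 to 206 lower, with 20 to 22 zinc and 14 to 16 phosphate regulon genes called. The fit with replicate number as a block (replicate block) gave 662 higher, 185 lower, 21 zinc and 15 phosphate regulon genes, and changed no named call.

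On the values as deposited the log2 difference turned positive for PIS1 (1.14), PHO89 (1.10), PHO8 (0.10), VTC5 (1.48), PPN1 (1.43), KCS1 (1.07), GSY2 (0.45), GPH1 (0.16), TPS1 (1.32), TPS2 (1.28), TPS3 (1.25), NTH1 (1.40), HXK1 (0.0633), GLK1 (0.17), EMI2 (0.14), PGM2 (1.29), UGP1 (1.24), ADH3 (0.26), APE1 (0.41), THI7 (0.12), HXT2 (0.32), TIR3 (0.0554), LYS20 (0.33) and ATG18 (0.31). It did so too for other genes of the lists, among them the called GPD1 (0.31) and TIR4 (0.33) and the uncalled SOD1 (0.91), FBA1 (0.97), FLO11 (0.61), DAN1 (0.96) and PHO91 (0.71). These shifts follow from the brighter Zn-limited arrays in that table. Under every other setting no called difference of a named gene changed sign. GPH1 lost its call in 10 of the 18 settings, and no other named gene in over 3. With the floor at 30 the calls of MNT2, PHM7, FRE4, INO4, CTT1, HXT5, DAL80 and GPH1 ended, so values near the floor limit the folds of dim genes.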

Other observations

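Genes that stand head to head with members of the 2 regulons were looked at after the member values were seen. Of 36 called zinc and phosphate regulon genes, 18 have a measured neighbour transcribed away from them, by gene order in the R64 annotation. Of these neighbours 12 were called in the same direction and none in the other. Of all genes 12.1% were called higher and 3.38% lower. ADH4 and MNT2, and IZH2 and PHO80, are members and neighbours of each other and count once from each side. YMR244W, beside ZRC1, read 75.6, 193 and 151 in Zn limitation, against 12, 13.2 and 12 in P limitation, at least 10.5-fold higher. HPF1 beside ZPS1 rose 14.1-fold, TEX1, of transcript export, beside RTC4, was at least 6.02-fold higher, and ZIP1, a meiotic chromosome gene, beside DPP1, was at least 3.72-fold higher. On the phosphate side CTF19, a kinetochore gene beside VTC3, lay at the floor in Zn limitation, against 31.9, 61.7 and 54.1 in P limitation, so it was at least 3.95-fold lower, while ARO9, of aromatic amino acid breakdown, beside SPL2, fell 3.20-fold. LST4 beside ZRT3, PHO80 beside IZH2 and PKH2 beside IZH4 were called but not after quantile normalisation.

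The seripauperin (PAU) family, small cell wall genes known from anaerobic growth, was gathered after PAU19 and PAU23 were seen among the lowest genes. Its members are near copies whose probe sets can share signal, so they do not count as separate findings. Of 10 measured, 9 were lower in Zn limitation, against 3.38% of all genes, and the 9 held under quantile and median scaling. On the values as deposited PAU17 turned higher, and PAU23 alone of the 9 was still called lower. PAU13, the brightest of them by mean signal, read 922, 2071 and 1701 in Zn limitation, against 4890.1, 5517 and 7802 in P limitation. PAU7 alone was not lower (log2 0.64 ± 0.39). All 10 lay above all C-, N- and S-limited arrays in P limitation, and PAU7, PAU10 and PAU17 did so in Zn limitation too.

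Of the 661 genes called higher, 256 (38.7%) were those for which the Zn-limited arrays lay apart from the 12 other wild-type arrays, 61 (9.23%) those for which the P-limited arrays did, and 19 those for which both did. Of the 184 called lower the counts were 51, 52 and 2. Of the genes not called they were 290 (6.30%), 142 (3.08%) and 0. A call already asks for a difference between the 2 groups, so called genes are more apt to lie apart. Zn-limited arrays are a deposit of their own, so the larger count for Zn limitation cannot be told apart from a difference between deposits.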
